A study of Homo sapiens with 24 samples.

Results

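HB2 cells transfected with an siRNA against exon 1 of GNG12-AS1 were compared directly with HB2 cells transfected with an siRNA against exon 9 of the same transcript. The members were the 12 arrays of these siRNAs, 6 each, out of 24 arrays in all; the other 12 arrays held a control siRNA and an siRNA against exon 7, and the control siRNA does not enter the contrast. HB2 is an established line of human mammary epithelial cells, grown here in serum with insulin and hydrocortisone; such lines are immortalized, in HB2 with a viral large T antigen that binds p53. Every group was transfected with the same reagent at 50 nM and its RNA was collected after 48 h. The labels give 6 biological replicates per siRNA, and the titles give each replicate number the same experiment in every group, so each exon 1 array has an exon 9 array as its partner. In the column names each exon carries 1 siRNA code, so the exon and the siRNA's own sequence cannot be told apart.

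An siRNA is loaded into an Argonaute protein and guides it to RNAs that match it; transcripts with only a short match to its first bases can be lowered too. Long noncoding RNAs are often kept in the nucleus at low level, and some act through their transcription and others through the RNA itself. GNG12-AS1 runs antisense to GNG12 and past DIRAS3, an imprinted tumour suppressor gene of the RAS family. The comparison asks how far siRNAs against different exons of a single transcript give the same expression in the same cells.

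Before normalization the 12 array medians ran from 7.41 to 7.73 on the log2 intensity scale, and from 34.8% to 39.5% of the probes of an array were above background. The number of arrays limits the precision. After filtering, 10063 genes were tested, each by its brightest probe. Of 10 listed markers of mammary epithelial lines with a probe, 8 were above background on all 12 arrays and 1 on none, and limma called 0 of the 8 tested (2 at an unadjusted p below 0.05; KRT5 -0.11 ± 0.06, adjusted p = 0.297). Of markers of other cell types, 5 of 17 immune, 2 of 14 fibroblast, 3 of 8 adipocyte and 0 of 9 endothelial genes were above background on all 12 arrays, and 10, 5, 2 and 7 of them on none. Of the adipocyte markers 0 of 4 tested were called (1 at an unadjusted p below 0.05), and 0 endothelial markers passed the filter.

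In the paired comparison 1224 of 10063 genes (12.2%) differed between the siRNAs, 657 higher under the exon 1 siRNA (6.53%) and 567 lower (5.63%), by limma with a Benjamini-Hochberg adjusted p below 0.05. Differences were small for most of them: the median size among the 1224 was 0.40 on the log2 scale, 118 genes were at least 1.5-fold higher and 129 lower, and 11 and 20 were at least 2-fold higher and lower. In 1140 of the called genes all 6 pairs differed in the same direction, beside 2066 of all 10063 genes tested. The paired fit itself favours such genes. The groups of 6 arrays did not overlap in 412 of the called genes, beside 4.79% of all genes tested. Without the replicate number in the fit 657 genes were called (343 higher, 314 lower), 638 of them among the 1224. Leaving out 1 replicate at a time, 493 of the 1224 genes (270 higher, 223 lower) were called in all 6 fits; without replicate 1, 2, 5 or 6 the count fell to between 649 and 673. Values below are log2 differences, exon 1 minus exon 9, ± standard error of this model, n = 6 pairs.

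**Figure D1:**
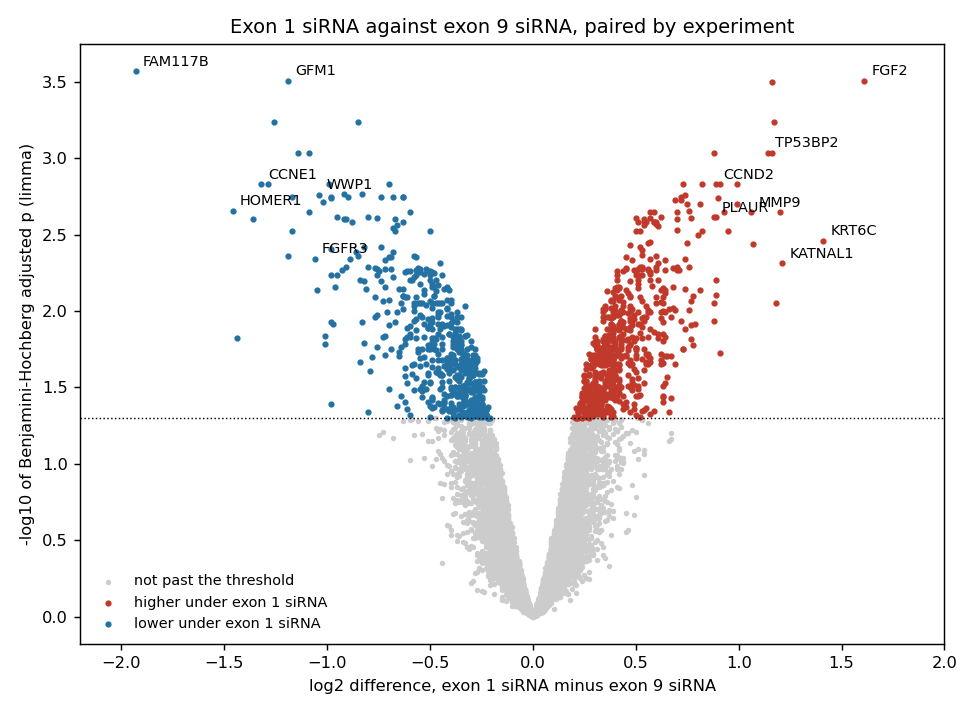
Log2 difference between exon 1 and exon 9 siRNA (horizontal axis) against -log10 of the adjusted p (vertical axis) for the 10063 genes, 1 point each; the dotted line marks adjusted p 0.05. FAM117B (-1.93) and FGF2 (1.61) lie farthest out on the left and the right.

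The lower side was led by FAM117B. Its intensities were 6.67, 6.99 and 7.27 (lowest, median and highest array) under the exon 1 siRNA and 8.67, 8.97 and 9.15 under the exon 9 siRNA. Every exon 1 array was below every exon 9 array, by 3.80-fold on average (-1.93 ± 0.11, adjusted p = 0.00027). A second FAM117B probe gave -1.12 ± 0.10. The control mean, 8.40, lay between the groups: FAM117B was below control under exon 1 (-1.41, adjusted p = 1.11e-08) and above it under exon 9 (0.52, adjusted p = 0.000947), in a fit over all 24 arrays with the replicate number.

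MED11, a subunit of the Mediator complex that links transcription factors to RNA polymerase, ran from 6.41 (median 7.13) to 7.78 under exon 1 and from 8.26 (median 8.39) to 8.67 under exon 9 (-1.36 ± 0.16, adjusted p = 0.00251). LIMS1, an adaptor of integrin adhesions, ran from 8.60 (median 9.12) to 9.48 and from 10.11 (median 10.22) to 10.36 (-1.17 ± 0.12, adjusted p = 0.0018), and its second probe gave -0.51 ± 0.17. The groups did not overlap in either gene, and for both the exon 9 arrays lay around the control mean (8.28 for MED11 and 10.21 for LIMS1). In WWP1, a ubiquitin ligase of the NEDD4 family, the groups were separate too, with exon 1 arrays from 8.66 (median 9.12) to 9.47, exon 9 arrays from 9.96 (median 10.12) to 10.27 and a control mean of 10.39 (-1.04 ± 0.10, adjusted p = 0.00173). Here every exon 9 array lay below the control mean as well (-0.28, adjusted p = 0.155, beside -1.32, adjusted p = 4.21e-07, under exon 1).

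CCNE1, the cyclin that drives entry into S phase with CDK2, was instead on opposite sides of control. The exon 1 arrays ran from 7.87 (median 8.09) to 8.61, the exon 9 arrays from 9.31 (median 9.49) to 9.72 and the control mean was 8.80. The groups did not overlap, and the difference was -1.32 ± 0.12 (adjusted p = 0.00148). A second CCNE1 probe gave -0.12 ± 0.19 (adjusted p = 0.756 over probes), so the probes of this gene disagree.

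Among the other large falls, KDM2B, a histone demethylase that brings a Polycomb complex to CpG islands, differed by -1.29 ± 0.12, SLCO2A1, a prostaglandin transporter, by -1.26 ± 0.09, and GFM1, an elongation factor of mitochondrial translation, by -1.19 ± 0.07. The histone variant gene MACROH2A2 differed by -1.19 ± 0.16, COQ3, an enzyme of ubiquinone synthesis, by -1.17 ± 0.15, and PAK1IP1, a nucleolar protein of ribosome assembly, by -1.14 ± 0.09 (-1.05 on a second probe). In these 6 genes the exon 9 means lay within 0.24 of control and the exon 1 means were lower than control. HOMER1, a scaffold protein best known from synapses, and PLEKHA3, a lipid-binding protein of the Golgi, were above background on 0 of 6 exon 1 arrays and on all 6 exon 9 arrays. They were at least 1.52-fold and at least 1.23-fold lower under exon 1. Both passed the detection filter through the exon 9 arrays alone, so their calls are no separate support and do not test these bounds. RNU4-1 differed by -1.44, but it lay near control under exon 1 (-0.19) and above it under exon 9 (1.25). It is described with the small nuclear RNAs.

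On the higher side FGF2 came first. This basic fibroblast growth factor, a secreted ligand that binds FGF receptors and heparan sulfate, ran from 7.70 (median 8.12) to 8.28 under the exon 1 siRNA. Under the exon 9 siRNA it ran from 6.23 (median 6.35) to 6.94 and was above background on 3 of 6 arrays. The groups did not overlap and differed 3.06-fold (1.61 ± 0.10, adjusted p = 0.000312). Set beside a control mean of 8.39, FGF2 stood at -1.94 under exon 9 and at -0.33 under exon 1 (adjusted p = 5.32e-10 and 0.0212).

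TP53BP2, which encodes the p53-binding protein ASPP2, separated the groups in the same way: from 9.78 (median 9.95) to 10.11 under exon 1 and from 8.60 (median 8.79) to 9.07 under exon 9 (1.14 ± 0.10, adjusted p = 0.000919). Control, at 9.91, was at the level of the exon 1 arrays, as was exon 7, at 9.87. A second TP53BP2 probe showed 0.03 ± 0.16 (adjusted p = 0.93 over probes), so here too the probes disagree. MTOR, the kinase at the centre of growth signalling, ran from 9.77 (median 9.94) to 10.25 and from 8.84 (median 9.09) to 9.49 (0.82 ± 0.10, adjusted p = 0.00298), with control at 10.04. CCND2, a D-type cyclin of G1, ran from 11.19 (median 11.35) to 11.50 and from 10.22 (median 10.47) to 10.76 (0.89 ± 0.08, adjusted p = 0.00148; 1.05 ± 0.14 on a second probe), with control at 11.36. In all of these the low arrays were those of the exon 9 siRNA.

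**Figure D2:**
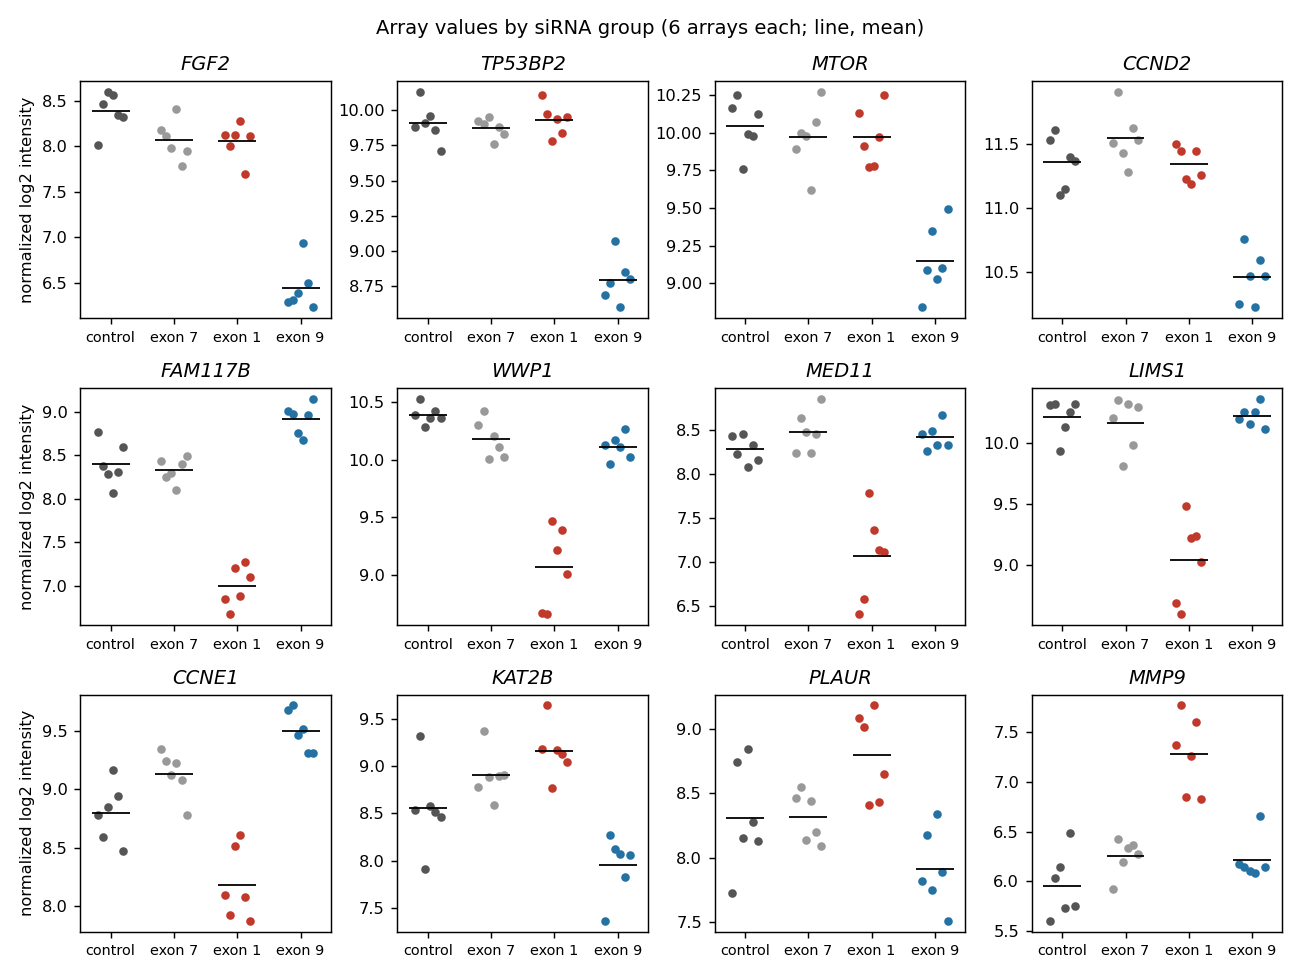
Normalized log2 intensity of 12 named genes on each of the 24 arrays, by siRNA group; points are arrays and the line is the mean of 6. In FGF2, TP53BP2, MTOR and CCND2 the exon 9 arrays stand apart, in WWP1, MED11 and LIMS1 the exon 1 arrays do, and in FAM117B, CCNE1, KAT2B and PLAUR the 2 groups lie on opposite sides of control.

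In the other large rises the exon 1 arrays were above control. KRT6C, a keratin of stressed epithelia, differed by 1.41 ± 0.18, PGM2L1, which makes glucose bisphosphate, by 1.18 ± 0.20, and ZNF365, a zinc finger gene, by 1.16 ± 0.10. Under exon 9 these stood at -0.29 (adjusted p = 0.263), -0.48 (0.071) and -0.37 (0.058) from control, below it without passing. COXFA4L3, a mitochondrial protein of the respiratory complex IV subunit family, differed by 1.16 ± 0.08 (0.57 ± 0.16 on a second probe) and stood at -0.18 from control under exon 9 (adjusted p = 0.107). MMP9 is described with the proteases. SPOCD1 was above background on all 6 exon 1 arrays and on 0 of 6 exon 9 arrays and was at least 1.36-fold higher. It passed the detection filter through the exon 1 arrays alone, so its call does not test this bound. KAT2B, the histone acetyltransferase also called PCAF, was above control under exon 1 (0.60) and below it under exon 9 (-0.60), which made a difference of 1.20 ± 0.13. HIC2, a zinc finger repressor (1.17 ± 0.09), and MYH15, a myosin heavy chain (1.07 ± 0.14; above background on 1 of 6 exon 9 arrays), were likewise on opposite sides, MYH15 narrowly (-0.48 under exon 9, adjusted p = 0.0468). KATNAL1, a katanin-like protein related to microtubule-severing enzymes, was above control under both siRNAs, by 1.75 under exon 1 and 0.54 under exon 9.

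Against control, 21.1% of genes passed under the exon 1 siRNA and 10.7% under the exon 9 siRNA in the fit over 24 arrays; these comparisons share the control arrays. For the 12 largest falls, 10 differed from control under the exon 1 siRNA and did not pass under the exon 9 siRNA, and 2 (FAM117B and CCNE1) passed on opposite sides. For the 12 largest rises, 6 passed under exon 1 and not under exon 9, 1 (TP53BP2) under exon 9 and not under exon 1, 3 on opposite sides and 2 (FGF2 and KATNAL1) on the same side. HOMER1, PLEKHA3 and SPOCD1, which passed the detection filter through 1 siRNA group alone, are counted here. All 24 were called in every fit with 1 replicate left out and without the replicate number. In 20 of them the groups did not overlap, beside 4.79% of all genes tested. The size of the 24 differences was between 0.86 and 2.02 in each column set. The array columns were taken as a first and a last set of 12, with 3 arrays of every group in each. The 24 were chosen from these same values for size, call and pair direction, which favours all of these results. They are therefore no separate support.

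**Figure D3:**
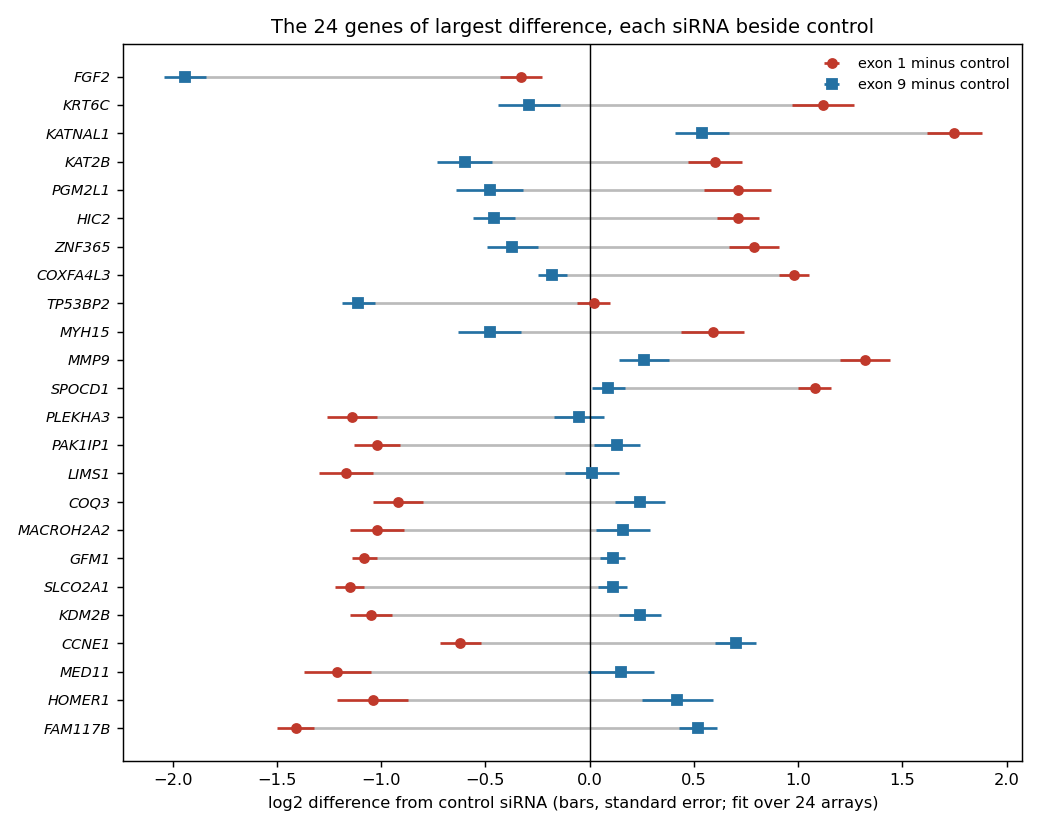
Log2 difference from control siRNA for the 24 genes of largest difference, exon 1 (circles) and exon 9 (squares), with standard errors from the fit over 24 arrays. The exon 1 circles of the 12 falls lie between -1.41 and -0.62, while 10 of their 12 exon 9 squares lie within 0.42 of 0.

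At the locus no difference was called for the genes nearest to the target. GNG12, a G-protein gamma subunit, had means of 8.34 and 8.23 (0.11 ± 0.09, 95% interval -0.09 to 0.31, adjusted p = 0.467). WLS, the carrier of Wnt proteins to the cell surface, had means of 10.02 and 10.07 (-0.05 ± 0.09, interval -0.24 to 0.14). DIRAS3 had probes above background on 2 and 0 of the 12 arrays and was not tested, and 0 probes carried the name GNG12-AS1, so the target's own level was not measured. Of 10 tested neighbours on 1p31 1 passed, DEPDC1 at 0.35 ± 0.09, a call lost without replicate 1, 2, 3 or 5.

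Proteases and their regulators were the list with the largest share on the higher side: of 15 tested matrix metalloproteinase, plasminogen activator and inhibitor genes 7 were higher under exon 1 (46.7%, beside 6.53% of all genes) and 1 lower. The list median was 0.10, beside 0.01 over all genes, and 12 of the 15 lay above 0. Without the replicate number 3 were called higher, and with 1 replicate left out 4 to 6 were.

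MMP9, a secreted gelatinase that cuts basement membrane collagen, ran from 6.83 (median 7.31) to 7.77 under exon 1, above background on all 6 arrays. Under exon 9 it ran from 6.08 (median 6.14) to 6.66, above background on 1 of 6 arrays, and the groups did not overlap (1.06 ± 0.12, adjusted p = 0.00225). Its exon 1 arrays by themselves met the detection filter, so the call and the separation are no separate support. The control mean was 5.96. PLAUR, the cell surface receptor that holds urokinase, ran from 8.41 (median 8.83) to 9.18 and from 7.51 (median 7.85) to 8.34 (0.88 ± 0.10, adjusted p = 0.00243), and its 2 other probes gave 0.91 and 0.72. Its control mean of 8.31 lay between the groups. PLAU, urokinase itself, differed by 0.37 ± 0.08 and PLAT, the tissue plasminogen activator, by 0.60 ± 0.08 (adjusted p = 0.00517; 0.052 without the replicate number). SERPINB5, the epithelial serpin called maspin, ran from 11.96 (median 12.17) to 12.43 and from 11.43 (median 11.57) to 11.83, again without overlap (0.61 ± 0.07, adjusted p = 0.00276). SERPINE2, an inhibitor of thrombin and plasminogen activators, and ADAM9, a membrane sheddase, differed by 0.30 ± 0.07 and 0.31 ± 0.08. MMP24, a membrane-anchored metalloproteinase, was the member on the lower side (-0.49 ± 0.13, adjusted p = 0.043; lost without replicate 1, 2, 4 or 5). MMP9, PLAT, PLAUR and SERPINB5 kept the call with each replicate left out.

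Several protease and plasminogen activator promoters are known for AP-1 sites, at which FOS and JUN proteins bind. The 250 bases before the start were therefore searched for TGANTCA on both strands. N stands for any base, so a match to this pattern need not be an AP-1 site. Of the 8 called members 5 had an entry among the RefSeq promoters (GRCh38.p14), and 2 of the 5 held the motif, beside 5.9% of 8149 tested genes with an entry and 6.57% of 35116 windows. MMP9, PLAT and ADAM9 had no entry and were not searched. The stretches around both matches are shown because these are the called members that held the motif, which is in capitals. It begins 186 bases before the start of PLAUR (chr19:43670319-43670385, minus strand) and 146 bases before that of SERPINB5 (chr18:63476782-63476848, plus strand).
PLAUR: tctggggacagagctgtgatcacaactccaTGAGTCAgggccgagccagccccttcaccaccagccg
SERPINB5: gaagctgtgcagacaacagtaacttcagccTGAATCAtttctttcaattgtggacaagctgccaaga
PLAU, SERPINE2 and MMP24 held no match in this window. JUNB and FOSL1, known as FRA1, are AP-1 subunits among the called MAPK feedback genes, and other FOS and JUN genes are not given here. JUNB was 0.54 ± 0.06 higher under exon 1 (adjusted p = 0.00251, and 0.144 without the replicate number), with 0.82 and 0.26 in the column sets. FOSL1 was 0.46 ± 0.09 higher (adjusted p = 0.0153). Binding of these proteins was not measured, and a part of AP-1 in the protease differences was not tested.

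Adhesion and cytoskeleton genes differed mostly towards higher values under the exon 1 siRNA. Of 25 epithelial adhesion genes 4 were higher (16%) and 1 lower, and all 5 kept the call with each replicate left out. CLDN1, a claudin of tight junctions, ran from 11.72 (median 11.99) to 12.44 under exon 1 and from 11.09 (median 11.21) to 11.73 under exon 9 (0.77 ± 0.09, adjusted p = 0.00248); the groups overlapped slightly. DSG3 and JUP, a desmosomal cadherin and the plakoglobin that anchors it, differed by 0.88 ± 0.15 and 0.44 ± 0.08. MAL2, a protein of transcytosis to the apical surface, ran from 12.33 (median 12.56) to 12.80 and from 11.73 (median 11.94) to 12.15 (0.63 ± 0.11, adjusted p = 0.00892). PKP2, a desmosomal plakophilin, was the lower member (-0.48 ± 0.08). E-cadherin, CDH1, had 0.24 ± 0.08 (adjusted p = 0.0893).

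Of 42 actin and motility genes 8 were higher (19%) and 0 lower, with a median of 0.14; 5 were called without the replicate number, and 3 with replicate 1 or 6 left out. MYL9, a myosin light chain of contraction, differed by 0.64 ± 0.10 (0.96 ± 0.13 on a second probe). TPM1, a tropomyosin, did so by 0.51 ± 0.08, although 1 of its other probes gave 0.04 ± 0.12, and RHOC, a small GTPase of motility, by 0.35 ± 0.06 (0.17 ± 0.06 on its second probe). Among 16 mesenchymal genes 4 were higher (CDH2, COL5A1, ITGA5 and THY1, from 0.34 to 0.40) and 0 lower, and the median, 0.27, was higher than in any other list with at least 10 genes tested. COL5A1, a fibrillar collagen chain, kept the call with each replicate left out; without replicate 1 it was the only member called, and without the replicate number 1 was called. Of 31 matrix genes 5 were higher and 0 lower (median 0.18); 1 was called without the replicate number and 3 without replicate 2 or 5. LAMB3, a chain of laminin-332, differed by 0.60 ± 0.09, TGFBI by 0.34 ± 0.07, and COL5A2 by 0.68 ± 0.11, above background on 5 exon 1 and 2 exon 9 arrays. Fibroblast markers, which share THY1 with the mesenchymal list, had a median of 0.21 over 5 genes with 1 called and a mean level from 7.83 to 8.17 under exon 1 and from 7.69 to 7.90 under exon 9; their part in the result was not tested. Of 14 fibroblast markers with a probe, FAP and THY1 were above background on all 12 arrays, COL1A1 on 10, COL1A2 on 9 and COL6A3 on 6, while 5, among them COL3A1, PDGFRA and PDGFRB, were so on 0.

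Of 40 cilium and microtubule genes 5 were higher (12.5%) and 2 lower. Besides KATNAL1 the higher members, named after their values were seen, were beta-tubulins. TUBB2B differed by 0.74 ± 0.10, TUBB3 by 0.43 ± 0.08, TUBB2A by 0.38 ± 0.06 and TUBB6 by 0.20 ± 0.06 (adjusted p = 0.0498), and the calls of these genes other than TUBB6 held with each replicate left out. Beta-tubulins are close copies, so a probe may read more than 1 of them. BBS1, a subunit of the complex that carries cargo into cilia, was lower (-0.57 ± 0.08), as was SPAST, a microtubule-severing enzyme (-0.39 ± 0.07).

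**Figure D4:**
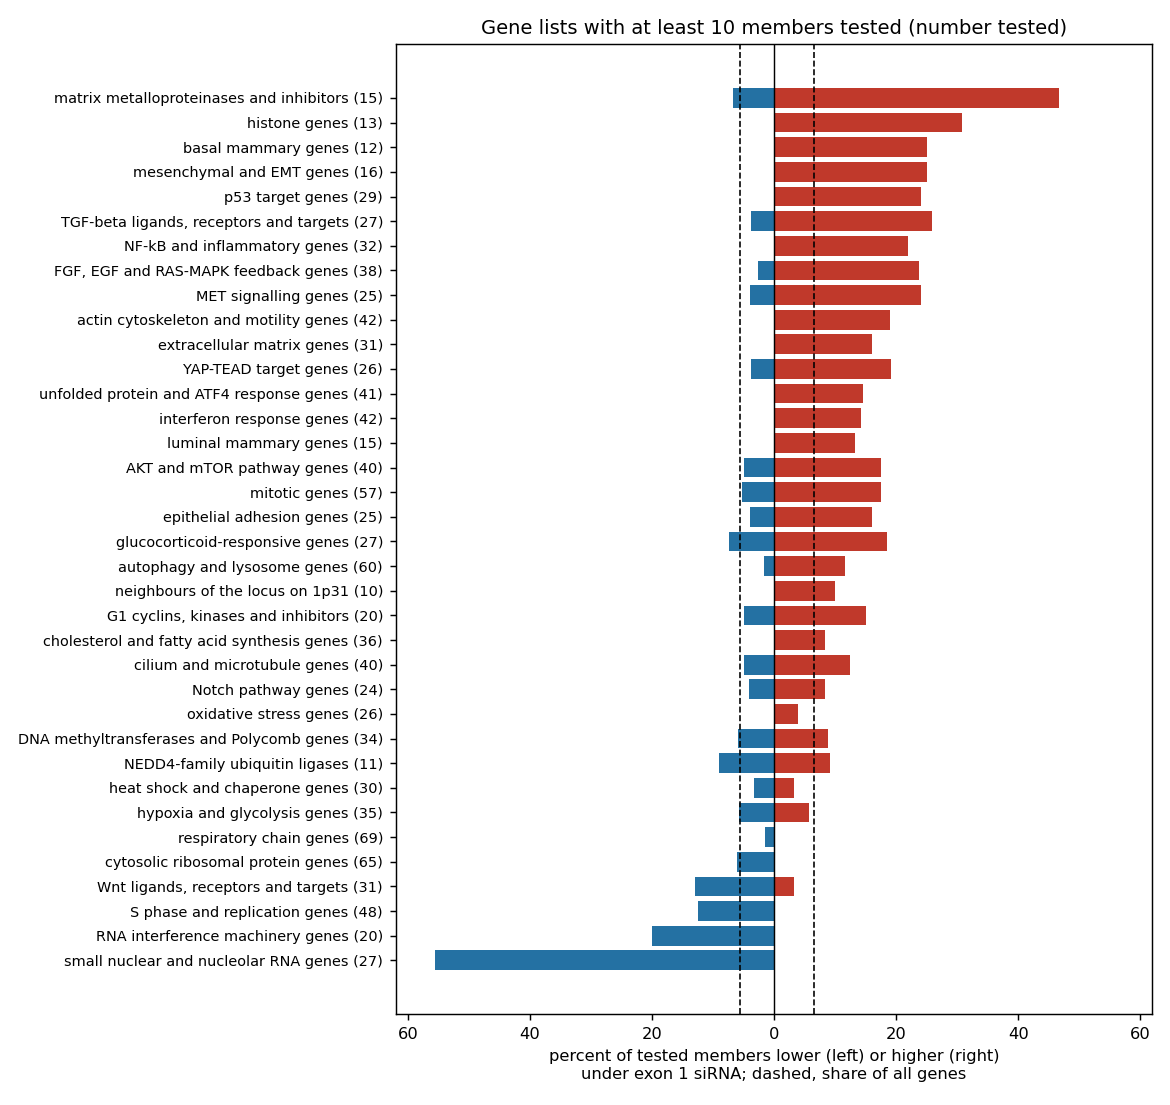
Percent of tested members of each gene list that were higher (right) or lower (left) under the exon 1 siRNA, with the share over all 10063 genes dashed (6.53% and 5.63%); lists with at least 10 genes tested, numbers tested in brackets. Protease genes (46.7% higher) and small nuclear and nucleolar RNAs (55.6% lower) stand at the ends.

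At an unadjusted p below 0.05 limma had 15.4% of all genes higher and 13.5% lower. In the lists given here with 0 members called lower, 0 to 3 members had such a p on the lower side: 3 inflammatory and 3 cholesterol synthesis genes, 2 mesenchymal genes, 1 each of the actin, matrix and histone genes, and 0 interferon, p53 target and unfolded protein genes. In those with 0 called higher it was 3 S phase, 3 RNA interference, 2 respiratory chain, 1 ribosomal protein and 0 small RNA genes.

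In growth factor signalling the ligand and a receptor of the same family lay on opposite sides. Besides FGF2, FGFR3, a receptor tyrosine kinase for FGFs, ran from 6.47 (median 7.08) to 7.30 under the exon 1 siRNA and from 7.87 (median 8.01) to 8.19 under the exon 9 siRNA. The groups did not overlap (-1.06 ± 0.14, adjusted p = 0.00454), and the control mean was 7.20. Of 38 genes of FGF, EGF and MAPK feedback 9 were higher (23.7%) and 1, FGFR3, was lower, with a median of 0.08. SPRY4, an inhibitor of receptor signalling that MAPK activity induces, differed by 0.47 ± 0.09 and MAP2K1, the kinase MEK1, by 0.42 ± 0.08. The EGF-receptor ligands HBEGF and TGFA differed by 0.24 ± 0.06 and 0.25 ± 0.06. In fits with 1 replicate left out 5 or 6 of the 9 were called, and 4 without the replicate number.

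MET itself had similar levels under both siRNAs: from 10.48 (median 10.63) to 10.93 under exon 1 and from 10.49 (median 10.63) to 10.89 under exon 9 (0.01 ± 0.10, 95% interval -0.21 to 0.23), and above the control mean of 9.74 under each. Of 25 MET signalling genes 6 were higher (24%) and 1 lower. PIK3R1, the regulatory subunit of PI3-kinase, differed by 0.61 ± 0.08 and kept the call with each replicate left out, as did MAP2K1, while GRB2, the adaptor between receptors and RAS, was lower (-0.52 ± 0.13, adjusted p = 0.0323; lost without replicate 1, 3 or 6). With 1 replicate left out 2 or 3 were called higher.

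The Wnt list had more members lower than higher under exon 1 relative to exon 9. Of 31 genes 4 were lower (12.9%, beside 5.63% of all genes) and 1 higher, with a median of -0.05. WNT5A, a ligand that mostly signals without beta-catenin, was above background on 4 exon 1 arrays, ranging from 5.30 (median 6.50) to 6.81, and on all 6 exon 9 arrays, ranging from 6.99 (median 7.27) to 7.79. The groups did not overlap (-0.97 ± 0.18, adjusted p = 0.0121). The control mean was 6.03, and WNT5A stood at 0.32 from control under exon 1 (adjusted p = 0.202) and at 1.30 under exon 9 (adjusted p = 5.53e-05). MSI2, an RNA-binding protein of progenitor cells, differed by -0.54 ± 0.09 and was above control under both siRNAs (0.51 under exon 1 and 1.05 under exon 9). DKK3, a secreted member of the Dickkopf family, was 0.53 ± 0.08 higher (0.45 ± 0.08 on a second probe). SFRP1 and PRICKLE1 differed by -0.45 ± 0.12 and -0.44 ± 0.10. PRICKLE1 was near control under exon 1 (-0.04) and above it under exon 9 (0.39, adjusted p = 0.00726). Both calls were lost in some fits with 1 replicate left out, where 2 or 3 of the 4 lower genes were called.

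TGF-beta genes included 7 higher (25.9%) and 1 lower of 27, with a median of 0.15; without the replicate number 1 was higher. FST, the activin-binding protein follistatin, ran from 9.05 (median 9.38) to 9.64 under exon 1 and from 7.73 (median 8.39) to 9.02 under exon 9, which did not overlap (0.95 ± 0.12, adjusted p = 0.00302; 0.72 ± 0.11 on a second probe). PMEPA1, a feedback inhibitor, differed by 0.50 ± 0.10 (lost in at least 1 fit with a replicate left out) and the transcription factor BHLHE40 by 0.63 ± 0.10. TGFBR3, the co-receptor betaglycan, was lower (-0.44 ± 0.08). FSTL1, counted here among YAP and TEAD targets, was lower too and without overlap (-0.72 ± 0.10, adjusted p = 0.00465). In that list 5 of 26 were higher, 0 with replicate 1, 2 or 5 left out. Of 24 Notch genes 2 were higher and 1 lower, near the shares over all genes.

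Calls among S phase and mitotic genes lay mostly on different sides. Of 48 S phase and replication genes 0 were higher and 6 lower (12.5%). CCNE1, DUT, which keeps uracil out of DNA (-0.62 ± 0.12; -0.77 and -0.69 on other probes), E2F2, an activator of S phase genes (-0.58 ± 0.08), and GINS4, part of the replicative helicase (-0.46 ± 0.08), kept the call with each replicate left out. E2F2 was at control under exon 1 (-0.05, adjusted p = 0.751) and above it under exon 9 (0.53, adjusted p = 0.00039). DUT and GINS4 were below control under exon 1 (-0.49 and -0.42) and near it under exon 9 (0.14 and 0.04). The median of the S phase list was -0.07. Of 57 mitotic genes 10 were higher (17.5%) and 3 lower, with a median of 0.15, and 48 of the 57 lay above 0. KIF20A, a kinesin of cytokinesis, ran from 10.74 (median 10.89) to 10.96 and from 10.22 (median 10.56) to 10.62 (0.39 ± 0.07, adjusted p = 0.0125), and CCNA2, cyclin A2, from 11.12 (median 11.32) to 11.37 and from 10.83 (median 10.97) to 11.02 (0.34 ± 0.07; lost without replicate 5). In each of these genes the control mean, 10.84 and 11.30, was at the exon 1 level. The kinase AURKA was among the 3 lower genes (-0.31 ± 0.07). The count of 10 fell to 2 without replicate 5 or 6 and to 3 without replicate 1 or 2, and KIF20A was the only mitotic gene called in all 6 of those fits.

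Of 29 genes listed as p53 targets 7 were higher (24.1%) and 0 lower, with a median of 0.19. The 7 include TP53BP2, which encodes a p53-binding protein and was counted as a target only by the list. Its second probe gave 0.03 ± 0.16. TP53BP2 was at control under exon 1 (0.02) and below it under exon 9 (-1.11). CDKN1A, the CDK inhibitor p21, ran from 11.68 (median 12.16) to 12.65 under exon 1 and from 11.35 (median 11.56) to 12.23 under exon 9; the groups overlapped, but all 6 pairs were higher under exon 1 (0.48 ± 0.08, adjusted p = 0.00965; 0.166 without the replicate number). TP53INP1 and PHLDA3, both induced by p53, differed by 0.59 ± 0.07 and 0.50 ± 0.08. Without the replicate number 3 of the 7 were called, and 4 to 6 with 1 replicate left out. Of 20 G1 cyclins, kinases and inhibitors 3 were higher (CCND2, CDKN1A and CDKN2D) and 1 lower, the pocket protein RBL2 (-0.29 ± 0.07), with a median of 0.02. RBL2 lost the call without replicate 1, 2, 3, 5 or 6 and without the replicate number (adjusted p = 0.111), and CDKN2D without replicate 2, 4 or 6. Of 13 histone genes 4 were higher (30.8%) and 0 lower: H2AC6 (0.78 ± 0.13), H2BC21 (0.55 ± 0.07), H2BC5 (0.54 ± 0.10) and H2AC18 (0.44 ± 0.12; lost without replicate 1, 2, 5 or 6). Histone genes are close copies as well, and probes may not separate them.

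In the AKT and mTOR pathway 7 of 40 genes were higher (17.5%) and 2 lower. MTOR was higher and its partner MLST8 lower, each being below control under a different siRNA. MTOR stood at -0.08 from control under exon 1 and at -0.89 under exon 9 (adjusted p = 0.634 and 4.7e-06). MLST8 stood at -0.79 and -0.09 (adjusted p = 3.21e-06 and 0.588). MLST8, a subunit shared by the mTOR complexes, ran from 8.74 (median 9.36) to 9.75 under exon 1 and from 9.80 (median 9.97) to 10.18 under exon 9 (-0.70 ± 0.09, adjusted p = 0.00442), without overlap. PIK3CB, a catalytic subunit of PI3-kinase, differed by -0.61 ± 0.15. AKT1 had means of 11.51 and 11.36 (0.15 ± 0.07, 95% interval -0.01 to 0.31). Only MTOR, PIK3R1 and MLST8 kept the call with each replicate left out. SGK1, a kinase that glucocorticoids induce, was 0.33 ± 0.07 higher under exon 1 (adjusted p = 0.0223), with 0.68 and -0.02 in the column sets, and its call was lost without replicate 1, 2, 4 or 6. Among ubiquitin ligases of the NEDD4 family, NEDD4 was higher (0.57 ± 0.07, adjusted p = 0.00245; 0.15 ± 0.07 on a second probe) where WWP1 was lower, and 9 of 11 members were not called. Of 60 autophagy and lysosome genes 7 were higher (11.7%) and 1 lower, with 3 higher without the replicate number, 2 without replicate 2, 4 or 6 and 3 without replicate 1 or 5. ATG16L1, which directs lipidation of LC3, ran from 9.10 (median 9.26) to 9.39 and from 8.73 (median 8.92) to 8.94 (0.37 ± 0.07), without overlap.

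Inflammatory genes were higher under exon 1 in 7 of 32 cases (21.9%) and lower in 0, with a list median of 0.09; 5 of the 7 kept the call with each replicate left out, while 3 were called without the replicate number. IL32, a cytokine of epithelial cells, ran from 9.46 (median 9.47) to 9.69 and from 8.70 (median 8.90) to 9.12 (0.60 ± 0.07, adjusted p = 0.00269; 0.80 ± 0.16 on a second probe), without overlap. IL6 was below control (9.90) under both siRNAs and less so under exon 1, with means of 9.28 and 8.89 (0.39 ± 0.07, adjusted p = 0.0109; 0.225 without the replicate number). PTGS2, the inducible cyclooxygenase, TNFAIP3, an inhibitor of NF-kB, and NFKB2, one of its subunits, differed by 0.61 ± 0.09, 0.62 ± 0.11 and 0.47 ± 0.08. Of 5 immune cell markers tested 2 were higher as well, CD74 and CSF1R (0.34 ± 0.08 each, both lost in some fits with 1 replicate left out), and the mean level over the 5 ran from 9.07 to 9.45 under exon 1 and from 8.82 to 9.23 under exon 9. Of 17 immune markers with a probe, CD14, CD68, CSF1R, CD74 and HLA-DRA were above background on all 12 arrays, while 10, among them PTPRC, CD3E and TYROBP, were so on 0; their part in the result was not tested.

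Interferon response genes showed how far the experiments themselves differed. The mean of the 42 tested genes ranged from 9.25 to 10.29 over the exon 1 arrays and from 9.09 to 10.16 over the exon 9 arrays, and replicate 2 had the highest mean in both groups. Within pairs the exon 1 mean was higher in replicates 1, 2, 4, 5 and 6, by 0.11 to 0.48, and 0.02 lower in replicate 3. The control mean, from 9.47 to 10.57, was above the means of both siRNAs in every replicate. In the paired fit 6 of 42 were higher (14.3%) and 0 lower, without the replicate number 0 were (2 at an unadjusted p below 0.05), and with 1 replicate left out 1 to 5; the list median was -0.17 and 0.50 in the column sets. ISG20, an exonuclease, was called in all 6 of those fits (0.57 ± 0.08, adjusted p = 0.00457). MX1, an antiviral GTPase, ran from 10.95 (median 11.74) to 12.99 and from 10.44 (median 11.16) to 12.68. All 6 MX1 pairs were higher under exon 1 (0.50 ± 0.10, adjusted p = 0.0179), with -0.16 and 1.15 in the column sets. ISG20, MX1 and OAS3 stood at -0.14, -0.09 and 0.12 from control under exon 1, none of them called. Under exon 9 they stood at -0.70, -0.58 and -0.33 (adjusted p = 7.64e-06, 0.000534 and 0.0315). GBP1 was instead above control under exon 1 (0.33, adjusted p = 0.0371) and not called under exon 9 (-0.14).

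The largest share on the lower side was among small nuclear and nucleolar RNAs. These short RNAs lack poly(A) tails in their mature form and act in splicing (the U4 and U6 types), in ribosomal RNA modification and processing (SNORD and SNORA) and in modification of spliceosomal RNAs in Cajal bodies (SCARNA). Of 27 tested genes of the list, which also holds genes that host snoRNAs and other long RNAs, 15 were lower under exon 1 (55.6%, beside 5.63% of all genes) and 0 higher; the median was -0.31 and 26 of 27 lay below 0. By kind, 11 of 19 short RNAs (median -0.44) and 4 of 8 host genes and long RNAs (median -0.22) were lower. The median of the short RNAs was -0.12 in column set 1 and -0.73 in set 2, and that of the whole list -0.15 and -0.48. With 1 replicate left out 8 to 15 were past the threshold, but without the replicate number 3 did, and the groups overlapped in all but 1 of the genes.

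RNU4-1, a copy of the U4 RNA, was singled out after its values were seen. It was above background on 2 exon 1 and 5 exon 9 arrays, and its pair differences were -2.02, -2.33, 0.06, -0.99, -1.28 and -2.09 in replicates 1 to 6 (-1.44 ± 0.28, adjusted p = 0.015). RNU4-2, the other U4 copy, had 7.04, 7.37 and 7.95 (lowest, median and highest) under exon 1 and 7.65, 8.49 and 9.04 under exon 9 (-0.98 ± 0.18, adjusted p = 0.0118). Near-identical copies may share signal. Both lay near control under exon 1 (-0.19 and -0.23, adjusted p = 0.578 and 0.322) and above it under exon 9 (1.25 and 0.74, adjusted p = 0.000725 and 0.00374).

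SNORD13, which helps acetylate ribosomal RNA, was instead at control level under exon 9 (0.03) and lower under exon 1 (-0.86, adjusted p = 0.00175). Its exon 1 arrays ran from 8.17 (median 8.77) to 9.16 and its exon 9 arrays from 9.24 (median 9.62) to 9.96, without overlap (-0.89 ± 0.12, adjusted p = 0.00457). SNORA12 (-0.82 ± 0.13), SCARNA9 (-0.62 ± 0.16), SNORA57 (-0.51 ± 0.10) and RNU6ATAC (-0.31 ± 0.08) followed the same order, with exon 1 below control and no call under exon 9. RMRP, the RNA of RNase MRP, differed by -0.56 ± 0.12 and RNU4ATAC, of the minor spliceosome, by -0.60 ± 0.12. RNU1-1 and RN7SL1, abundant RNAs of the spliceosome and of the signal recognition particle, had -0.04 ± 0.09 and -0.02 ± 0.08. Averaged over the 19 short RNAs the pair differences were -0.61, -0.55, -0.13, -0.50, -0.42 and -0.53, so every pair was lower under exon 1 and replicate 3 least; replicate 4 had the highest mean in both groups (9.36 and 9.87).

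**Figure D5:**
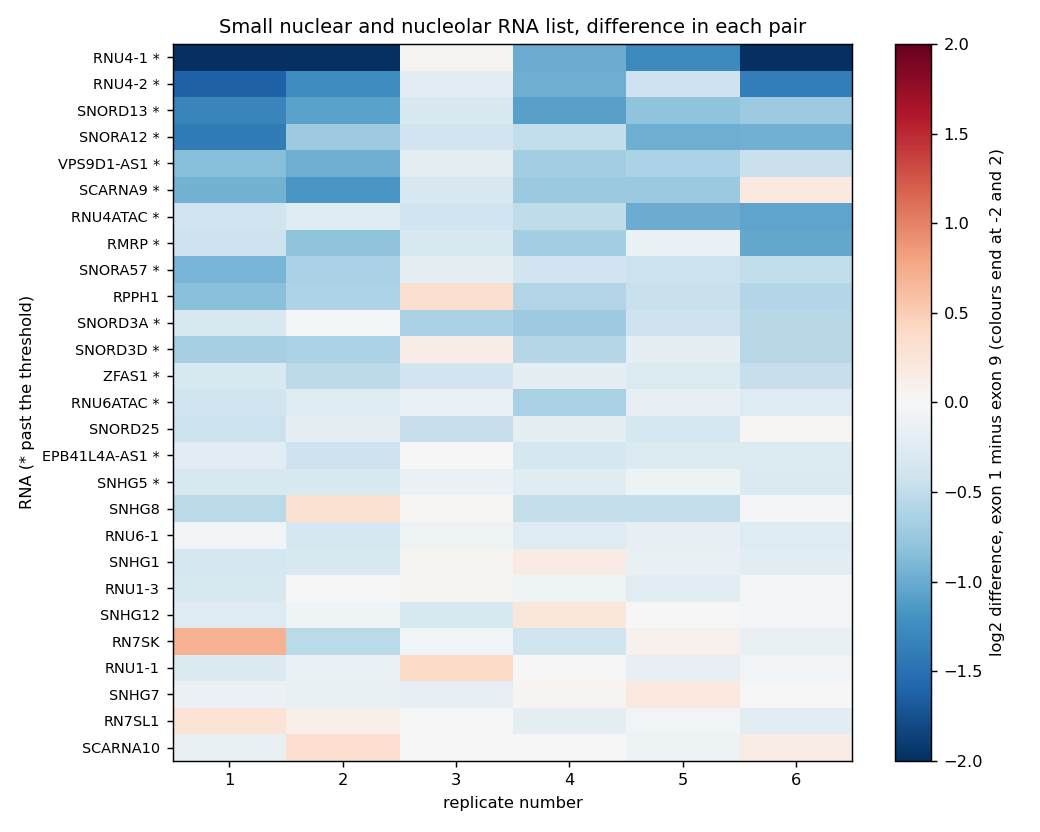
Log2 difference between exon 1 and exon 9 siRNA in each of the 6 pairs (columns) for the 27 tested genes of the small nuclear and nucleolar RNA list (rows, ordered by difference; asterisks mark genes past the threshold; colours end at -2 and 2). Blue, lower under exon 1, fills most of the upper rows and is palest in replicate 3, where the mean over the 19 short RNAs was -0.13.

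Genes of the RNA interference machinery, a list that also holds genes of miRNA maturation, included 4 lower (20%) and 0 higher of 20, with a median of -0.01. AGO1, an Argonaute protein, ran from 7.36 (median 7.53) to 7.98 under exon 1 and from 7.90 (median 8.22) to 8.36 under exon 9 (-0.62 ± 0.10, adjusted p = 0.00808) and was called in every fit with 1 replicate left out. DROSHA, the nuclear enzyme of miRNA maturation (-0.30 ± 0.06), XPO5, which exports the precursors (-0.32 ± 0.08), and TUT7, which adds uridines to them (-0.35 ± 0.07), lost the call without replicate 5 or 6, among others. Among Polycomb and DNA methylation genes 3 of 34 were higher and 2 lower, close to the shares over all genes, with KDM2B and SCML2 (0.70 ± 0.10; above background on 5 exon 1 and 1 exon 9 arrays) the only members called in every such fit.

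Among stress and metabolic lists, HMOX1, the haem-degrading enzyme induced by oxidative stress, was the only one of 26 oxidative stress genes called (0.81 ± 0.13, adjusted p = 0.00731). NDRG1, induced by hypoxia, ran from 9.48 (median 9.64) to 9.96 and from 8.91 (median 9.17) to 9.40 (0.50 ± 0.06, adjusted p = 0.00248), while CA12, a carbonic anhydrase, was lower, above background on 2 exon 1 and 6 exon 9 arrays (-1.09 ± 0.12, adjusted p = 0.00225), so that hypoxia genes gave 2 of 35 higher and 2 lower. Unfolded protein and ATF4 genes gave 6 of 41 higher (14.6%) and 0 lower, with MTHFD2, a mitochondrial folate enzyme, at 0.56 ± 0.07; 1 was called without the replicate number and 3 without replicate 5. Cholesterol and fatty acid synthesis gave 3 of 36 higher and 0 lower (MVK 0.53 ± 0.09, MVD 0.39 ± 0.08), and glucocorticoid-responsive genes 5 of 27 higher (18.5%) and 2 lower (KLF4 0.72 ± 0.13, CEBPD 0.43 ± 0.07). Of the glucocorticoid-responsive genes 1 was higher and 0 lower without the replicate number, 3 were higher without replicate 1, 2 or 6, and 0 were lower without replicate 2, 3, 4 or 6. Heat shock genes gave 1 each way of 30, with HSPB8 at 0.50 ± 0.10 and CRYAB at -0.46 ± 0.09. Of 12 basal mammary genes 3 were higher, of which OXTR, the oxytocin receptor, kept the call with each replicate left out (0.63 ± 0.12), and of 15 luminal genes 2 were, AGR2 (0.62 ± 0.14) and STC2 (0.39 ± 0.08), neither of which did. Of 69 respiratory chain genes 1 was lower, and of 65 ribosomal protein genes 4 were (6.15%), 0 without replicate 2 or 5.

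Several genes that earlier results of these data name as far from control were closer to each other under the siRNAs compared here than to control. PTPMT1, a mitochondrial phosphatase, had means of 12.11 and 12.23 beside 10.86 in control (-0.13 ± 0.06, 95% interval -0.25 to 0). LZTFL1, a regulator of ciliary traffic, had 8.03 and 7.85 beside 6.30 (0.18 ± 0.10, interval -0.05 to 0.40). CCND3, a D-type cyclin, had 12.44 and 12.18 beside 11.16 (0.25 ± 0.07, interval 0.08 to 0.42, adjusted p = 0.059). All 6 CCND3 pairs were higher under exon 1, and the gene passed with the column set added to the replicate block (adjusted p = 0.0373). Any remaining difference in these 3 genes is bounded by those intervals and is smaller than their distance from control.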

How the data were processed

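Biotin-labelled RNA was read on Illumina bead arrays. The deposited table of non-normalized values holds log2 intensities, and the authors' processed values, also deposited as log2, were an alternative, both made with tools not given in the sources used here. Values were returned to linear scale, background corrected (normexp, offset 16, with 457 olfactory receptor probes as surrogate negative controls), quantile normalized over 24 arrays and put back on the log2 scale (limma 3.58.1, R 4.3.3). Of 47231 probes 30113 had 1 symbol, 8 several and 17110 none; 30074 were updated by gene number to RefSeq names. A probe was kept if above background (p below 0.05) on at least 6 of the 12 arrays (16750 probes, 13153 named); the brightest stood for each gene. A group below background on every array gives only a bound. In genes such as MMP9, MYH15 and CA12 the arrays of the higher group by themselves met this filter. Few arrays of the lower group were above background there, so the size of these differences is uncertain and their calls are no separate support.

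lmFit and eBayes were run on the 12 arrays with the replicate number as a block, tested two-sided with Benjamini-Hochberg adjustment. In replicates 2 to 6 the exon 1 and exon 9 arrays deviated together (correlations 0.25 to 0.42; median of other pairs -0.07), but not in replicate 1 (0.04), whose exon 1 array correlated best with replicate 2 and whose exon 9 array with replicate 5. The numbers pair the samples because the titles give each number 1 experiment. The p-values cover the spread of the pair differences over these experiments. Differences in level between experiments are taken out by the block.

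Named genes were the 12 largest rises and 12 largest falls with 6 pair differences of one sign, up to 4 called members of smallest adjusted p per list (3 from marker lists when none passed), and 18 genes named in any case. The members, the 41 lists and these genes were chosen with earlier results of these data known; other list members and RNU4-1 were named after their values were seen. On simulated data of 10063 genes for this comparison the steps recovered 13.4%, 76.1% and 98.5% of differences of 0.3, 0.5 and 1, and called 9 of 9863 unchanged genes. Alternatives were other blocks, background corrections, scalings, filters, probe summaries, array weights, a 1.5-fold minimum and 1 replicate left out. The chip is not named in the columns and was not used as a block.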

Additional observations from a re-analysis of the deposited data

Results flagged for a closer look

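Dixon's test marked 19 of 310 groups of 6 arrays among the named genes (6.13%) as holding an array far from the others; chance flags about 1 in 20 groups. Exon 1 replicate 2 was high for ANKRD1 (11.13, the others 10.47 to 10.70) and GBP1 (9.16, the others at most 8.56). Exon 1 replicate 4 was high for KLF6 (11.95), MTHFD2 (11.95) and SNORA12 (10.56), replicate 6 was low for H2BC5 (9.43) and high for PKP2 (8.23), and replicate 1 was high for IL32 (9.69) and low for WNT5A (5.30). Exon 9 replicate 4 was high for ANKRD1 (10.79), CCN1 (11.86, the others at most 10.83) and SNORA12 (11.05) and low for PPARG (11.48). SNORA12 was thus high in replicate 4 of both groups, and its difference within that pair was -0.49. Exon 9 replicate 2 was high for CCND3 (12.34), COXFA4L3 (9.77) and TGFBR3 (10.18), replicate 5 for MMP9 (6.66) and SPOCD1 (6.18), and replicate 1 was low for PTTG1 (12.07).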

How the results depend on the processing

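The count of 1224 genes (657 higher, 567 lower) moved with how the experiments entered the fit and with a fold minimum. Without the replicate number as a block it was 657 (343 and 314), and with the column set as a block in its place 738 (381 and 357). With the replicate block and all 24 arrays it was 1921 (1039 and 882), and with the column set as well 2387 (1301 and 1086). Within the column sets alone, without a replicate block, it was 45 (20 and 25) and 4 (1 and 3); the replicate block could not be fitted there, and 3 arrays per group limit these counts. Over the 12 arrays, both blocks together called 1462 genes, 1199 of them among the 1224. Tested itself, the difference between the sets passed in 0 genes (275, 2.73%, at an unadjusted p below 0.05). Without the detection filter the count was 770 (431 and 339), over more genes tested, and with a 1.5-fold minimum 247 (118 and 129). Leaving out 1 replicate gave 649 to 1095 genes called, 349 to 627 higher and 293 to 468 lower. The other settings gave 953 to 1605 genes.

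Over all named genes and settings 3272 values kept direction and call, 723 lost the call, 17 gained it and 7 changed sign. MET, which did not pass the test, turned to -0.01 with array weights, -0.10 in column set 1, -0.07 without replicate 2 and -0.02 without replicate 3 (-0.07 to 0.08 over the 6 replicates left out). In column set 1 MX1 (-0.16) and OAS3 (-0.03), and in set 2 SGK1 (-0.02), also changed sign; the cause was not tested. The share of calls on the higher side was 53.7%, and 58% under median scaling; the median over all genes was 0.01 and moved by at most 0.01 under any scaling. The 3 settings with the column set as a block were added after seeing the data. Signal over background limits genes such as DIRAS3 and the groups given as bounds.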

Other observations

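Of 3597 detected probes with no gene name, 155 differed between the siRNAs when every probe was tested by itself, beside 1202 of all 16750 probes. The first and second principal components of the 12 arrays held 29.5% and 16.8% of the variance.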
